A study of Mus musculus with 2 samples.

Results

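The Eph receptors examined here were Epha3, Epha4, Epha5, Epha6, Epha7, Epha8, Epha10, Ephb1, Ephb2 and Ephb3, and their members were the GLORI-detected m6A sites that lie on the gene strand inside each gene's interval in GENCODE M21 on GRCm38. By this rule the 10 genes held 199 of 79355 sites listed for the cerebellum and 607 of 188295 listed for the cerebrum. They had 115 at the same base in both libraries and 691 in either. The 115 were 57.8% of their cerebellum sites and 18.9% of their cerebrum sites, against 60.8% and 25.6% over all sites. GLORI turns unmethylated adenosines into bases read as G, so that an adenosine still read as A is called methylated. Both samples, a cerebellum and a cerebrum, came from a female newborn (P0) of the cross named F1r, in which the mother was C57 (C57BL/6J) and the father PWK (PWK/PhJ), and poly(A)+ RNA was used. There was 1 library per tissue, so the tissues were compared as 2 libraries with no test of a difference. The lists give positions without a methylation rate or a read count, and a base that is missing from a list can be unmethylated, unexpressed or covered by too few reads. In whole tissue, fewer cells of a type and less RNA per cell cannot be told apart.

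Eph receptors are the receptor tyrosine kinases that bind ephrins on neighbouring cells. EphA receptors mainly bind the lipid-anchored ephrin-A ligands and EphB receptors the transmembrane ephrin-B ligands, and contact leads to repulsion or adhesion of axons and migrating cells, for which the family is best known in the developing brain. Each receptor carries an N-terminal ephrin-binding domain, most of which is encoded by exon 3, followed by a cysteine-rich region, fibronectin repeats, a transmembrane segment and the kinase domain. Epha10 lacks the residues needed for kinase activity. m6A is laid down mostly at DRACH motifs, 5-mers such as GGACT and AAACA in the usual letters for mixed bases (D for any but C, R for a purine, H for any but G), with the methylated A at the centre.

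Tissue labels were checked with genes known from each tissue. All 13 cerebrum markers had sites in the cerebrum library, against 57.4% of the 21951 coding genes. In the cerebellum library 5 of the 13 had a site, against 41.2% of coding genes. Of these 5, Bcl11b had 24 on the cerebellum list and 79 on that of the cerebrum, and Lhx2 8 and 13. Emx2 had 1 and 7, Neurod2 1 and 27, and Neurod6 1 and 18. Of the 10 cerebellum markers, En1 had 6 sites and 0, En2 9 and 0, Barhl1 12 and 1, and Lhx1 12 and 1 in the cerebellum and cerebrum, while Atoh1 and Pax2 were without a site in either library and Gbx2 had 3 in each. The other cerebellum markers had more sites in the cerebrum, Zic4 with 4 and 24, Zic1 with 19 and 22, and Cbln1 with 16 and 19 in the same order.

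Bases of exon 3 that were called in several receptors at the same place of the protein alignment are shown first, because they carry the pattern that recurs in the family. Each sequence is 21 nt of GRCm38 on the gene strand, with the 5-mer in capitals and the called A at its centre. All 5-mers and DRACH labels in this report are those of GRCm38. The PWK allele can differ from it and was not examined. At the first place, 6 receptors had a site, in codon 105 of Epha3, 107 of Epha4, 138 of Epha5, 108 of Epha7, 106 of Epha8 and 95 of Ephb1.
Epha3, chromosome 16, position 63773410, minus strand, cerebrum only: acactgcgGGACTgtaacagc
Epha4, chromosome 1, position 77507051, minus strand, cerebrum only: actctaagGGACTgcaacagt
Epha5, chromosome 5, position 84331731, minus strand, both libraries: actttaagGGACTgcaacagc
Epha7, chromosome 4, position 28821159, plus strand, both libraries: accttgagGGATTgtaatagt
Epha8, chromosome 4, position 136946155, minus strand, cerebellum only: accctgcgTGACTgcaatagc
Ephb1, chromosome 9, position 102195295, minus strand, both libraries: actgtgagGGACTgcagcagc
The Epha7 site lies in GGATT, outside DRACH, and was listed in both libraries. At this base Epha6 also holds GGATT, Ephb2 TGACT and Ephb3 AGACT, and these were in neither list.

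The second place was called in 5 EphA receptors, in codon 115 of Epha3, 117 of Epha4, 148 of Epha5, 214 of Epha6 and 118 of Epha7.
Epha3, chromosome 16, position 63773381, minus strand, cerebrum only: ggttttggGGACTtgcaagga
Epha4, chromosome 1, position 77507022, minus strand, both libraries: cgtcatggGGACTtgcaagga
Epha5, chromosome 5, position 84331702, minus strand, cerebrum only: aggactggGGACTtgtaagga
Epha6, chromosome 16, position 60425195, minus strand, cerebrum only: ggtcttggGGACTtgtaaaga
Epha7, chromosome 4, position 28821188, plus strand, both libraries: agtcctggGAACTtgcaagga
The other members do not hold DRACH there. Epha8 has GTACC, Epha10 GCACC, and Ephb1, Ephb2 and Ephb3 have GCTCC, with no A at the aligned base.

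Another place, in codon 163 of Epha3, 165 of Epha4, 196 of Epha5 and 262 of Epha6, was chosen for display after its values were seen, because its 5-mer AAACT was called in each of the 4 genes that hold it.
Epha3, chromosome 16, position 63773235, minus strand, cerebrum only: gcattctgAAACTcaacactg
Epha4, chromosome 1, position 77506876, minus strand, cerebrum only: gaatcatgAAACTcaacactg
Epha5, chromosome 5, position 84331556, minus strand, both libraries: gtgtcatgAAACTgaatacag
Epha6, chromosome 16, position 60425049, minus strand, cerebrum only: gcatccttAAACTcaacactg
Epha7, Epha8 and Epha10 have AAGCT at this place, where the called A is a G. Ephb1 has AAAGT and Ephb2 AAAAT, each with an A that was not called, and Ephb3 has CGTGT. A shared 5-mer was not called in every holder elsewhere. In codon 237 of Ephb1 and 238 of Ephb2, AAACT was called, but not in Epha6, which also holds it there.

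In 7 codons, counting the first and second places, sites found in both libraries fell on the same codon in at least 2 members. The other 5 codons are given here by the sites that both libraries listed.
Epha7, chromosome 4, position 28821228, plus strand, codon 131: tatgaaacAGACTacgacacc
Ephb1, chromosome 9, position 102195226, minus strand, codon 118: tatgagacTGACTctgtgatt
Epha7, chromosome 4, position 28821276, plus strand, codon 147: gttaaaatAGACAccattgct
Ephb1, chromosome 9, position 102195166, minus strand, codon 138: ctcaaagtGGACAccattgct
Epha8, chromosome 4, position 136945915, minus strand, codon 186: gccttccaGGACAtaggtgcc
Ephb2, chromosome 4, position 136771228, minus strand, codon 180: gccttccaGGACTatggcggc
Epha6, chromosome 16, position 60424915, minus strand, codon 307: accgtgcgGAACTtggctatg
Epha7, chromosome 4, position 28821468, plus strand, codon 211: attgttgaGAACTtagctgtc
Epha5, chromosome 5, position 84233696, minus strand, codon 432: atgatggtGGACCtacttgct
Epha7, chromosome 4, position 28871883, plus strand, codon 404: actgtcatGGACCtacttgcc
Epha7 took part in 4 of these 5 codons, and in 2 of them with Ephb1, although the receptors belong to different subfamilies. The last pair lies in exon 5 and the others in exon 3.

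Sites were spread unevenly over the family. In the cerebellum 9 of the 10 genes had at least 1 site, against 41.2% of the 21951 coding genes, and in the cerebrum 10 of 10, against 57.4%. An exonic DRACH site found in both libraries was present in 7 of the 10, against 31.0% of coding genes. The members held a median of 20.5 sites (cerebellum) and 57 sites (cerebrum), against 4 and 7 over the coding genes with a site. The members were chosen with earlier results of these data known, so these shares and medians describe a chosen set. Of the Eph receptors left out, Epha1, Epha2 and Ephb4 had no site in either library, and Ephb6 had 5 and 14. The genes span 18.6 kb in Ephb3 to 952 kb in Epha6, and whether gene length accounts for the counts was not tested.

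**Figure D1:**
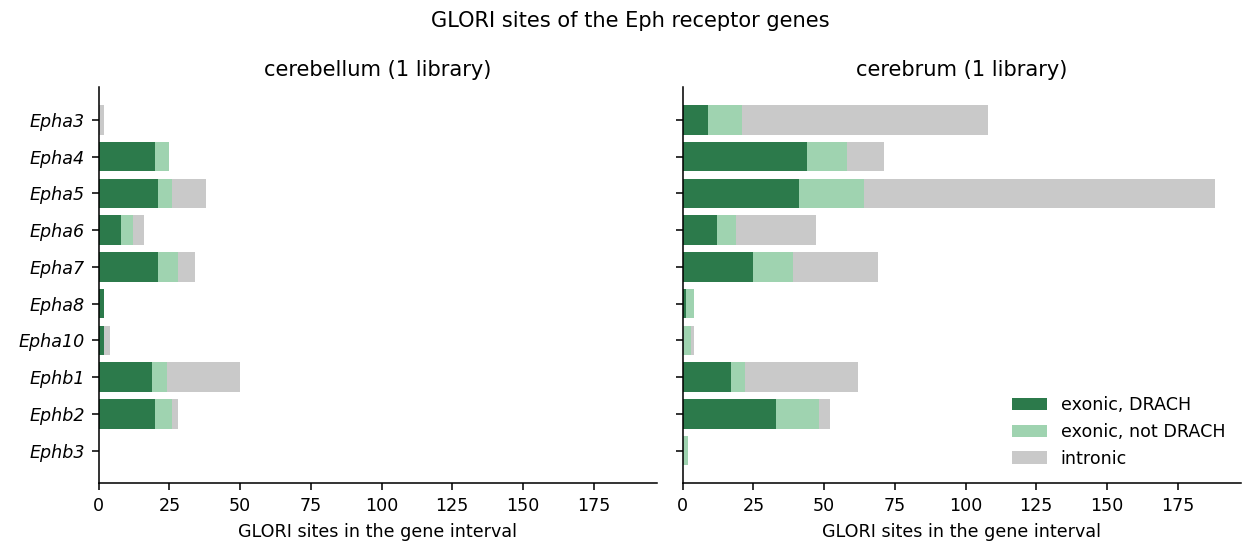
Number of GLORI sites in each Eph receptor gene (x axis, sites) in the cerebellum library (left) and the cerebrum library (right), split into exonic DRACH sites, other exonic sites and intronic sites. Epha5 (188) and Epha3 (108) have the most sites in the cerebrum, mainly in introns, whereas Epha3 has 2 and Ephb3 has 0 in the cerebellum.

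Among the EphA receptors, Epha3 had the highest ratio of cerebrum to cerebellum sites, and Epha5 the widest gap in number. The cerebellum list held 2 of its sites and the cerebrum list 108, and its exonic sites numbered 0 and 21, of which 9 were DRACH sites. Over all members with an exonic DRACH site, Epha3 was the only one of 9 to have them in the cerebrum library alone, while 24.8% of the 10025 coding genes with such a site did so. Epha4, a receptor of both ephrin classes, had 25 and 71 sites in the same order, and 23 were shared. Every one of its 20 cerebellum DRACH sites was also found in the cerebrum. Epha5 had 38 and 188 sites, and 20 of its 21 exonic DRACH sites of the cerebellum were among the 41 of the cerebrum. Epha7 had 34 and 69 sites, with 21 and 25 exonic DRACH sites, 16 of them shared. Epha6 had 16 and 47 sites, with 8 and 12 exonic DRACH sites, 5 of them shared. Epha8 had 2 and 4 sites, and Epha10 had 4 in each library with none in common.

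Of the EphB receptors, Ephb1 stood apart in its balance between the libraries. It had 50 sites on the cerebellum list and 62 on that of the cerebrum, a ratio of 1.24, whereas the cerebrum library held 2.37 times as many sites as the cerebellum library in all. Exonic DRACH sites of Ephb1 came to 19 for the cerebellum and 17 for the cerebrum, 13 of them shared. More exonic DRACH sites in the cerebellum than in the cerebrum were listed for 3 of the 9 members with any, Epha8 (2 and 1), Epha10 (2 and 0) and Ephb1, and for 7.71% of coding genes. The counts of Epha8 and Epha10 are too small to set against that share. Ephb2 had 28 and 52 sites, with 20 and 33 exonic DRACH sites, 17 of them shared. Ephb3 had none in the cerebellum and 2 in the cerebrum, both outside DRACH, although its longest complete isoform, Ephb3-204, has 87 DRACH adenosines.

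In the cerebellum, 121 of the 199 sites of the family lay in DRACH, 60.8% (95% Wilson interval 53.9% to 67.3%), and in the cerebrum 213 of 607, 35.1% (31.4% to 39.0%). These intervals count each site as independent and reflect counting error alone. Over all sites the shares were 62.1% and 46.7%. The cerebrum lists of the receptors were richer in intronic sites than the library as a whole, with 46.1% of the sites in exons (42.2% to 50.1%) against 75.2% of all cerebrum sites in genes. Among exonic sites the DRACH share was 65.0% in the receptors (59.2% to 70.3%) and 58.4% over all genes, and in the cerebellum 77.9% (70.5% to 83.9%) and 72.7%. Of the sites found in both libraries, 82.6% lay in DRACH (74.7% to 88.5%), against 82.7% for all genes. The most frequent 5-mers were GGACT with 20 sites, GAACT with 19 and AAACT with 12 in the cerebellum. AGACT had 12 there and TGACT another 12. Outside DRACH, and named after the counts were seen, GGATT had 8 and CTATC 5. These are 4.02% (2.05% to 7.73%) and 2.51% (1.08% to 5.75%) of the sites, against 1.20% and 0.706% over all cerebellum sites. The former were all exonic and the latter all intronic. In the cerebrum GGACT led with 40 sites, followed by GAACT with 25, AAACT with 21, AGACT with 20 and GGACA with 17. Outside DRACH, and also named after the counts were seen, TCATC had 12 and CAAAA 10 there. They make up 1.98% (1.13% to 3.42%) and 1.65% (0.897% to 3.01%), against 0.892% and 0.258% over all cerebrum sites. Most sites of both lay in introns, and the part of the larger intronic share in these differences was not tested. GGATT was also on the cerebrum list, in Epha4, Epha5, Epha6, Epha7 and Ephb2. It was not among the 10 most frequent 5-mers there, of which the last, CAAAA, had 10 sites. Every exonic site had an A in GRCm38, and 1 intronic site of Epha3 in the cerebrum did not.

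For the cerebellum, 8 of the 142 sites on coding isoforms lay in the 5′ UTR, 51 in the coding sequence and 83 in the 3′ UTR. For the cerebrum the numbers were 10, 100 and 154 of 264. Of the 10, 1 site of Ephb3 is in the 5′ UTR of Ephb3-204 but in coding exon 3 of the full-length isoform. It is counted in exon 3 where exon numbers or the alignment are used. The 3′ UTR share was 58.5% (50.2% to 66.2%) and 58.3% (52.3% to 64.1%), and over all genes 56.2% and 53.7%. The split differed between members. In Epha4, 23 of 25 (cerebellum) and 42 of 56 (cerebrum) coding isoform sites lay in the 3′ UTR, but in Epha7 11 of 27 and 18 of 38. Ephb2, which has the longest 3′ UTR of the family at 7783 nt in Ephb2-202, had 19 of 26 and 34 of 46 sites there. In Epha5 the 5′ UTR held 6 of 26 and 7 of 60 sites, and the 5′ UTR share, 5.63% and 3.79% with this gene, was 1.72% and 1.47% without it.

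**Figure D2:**
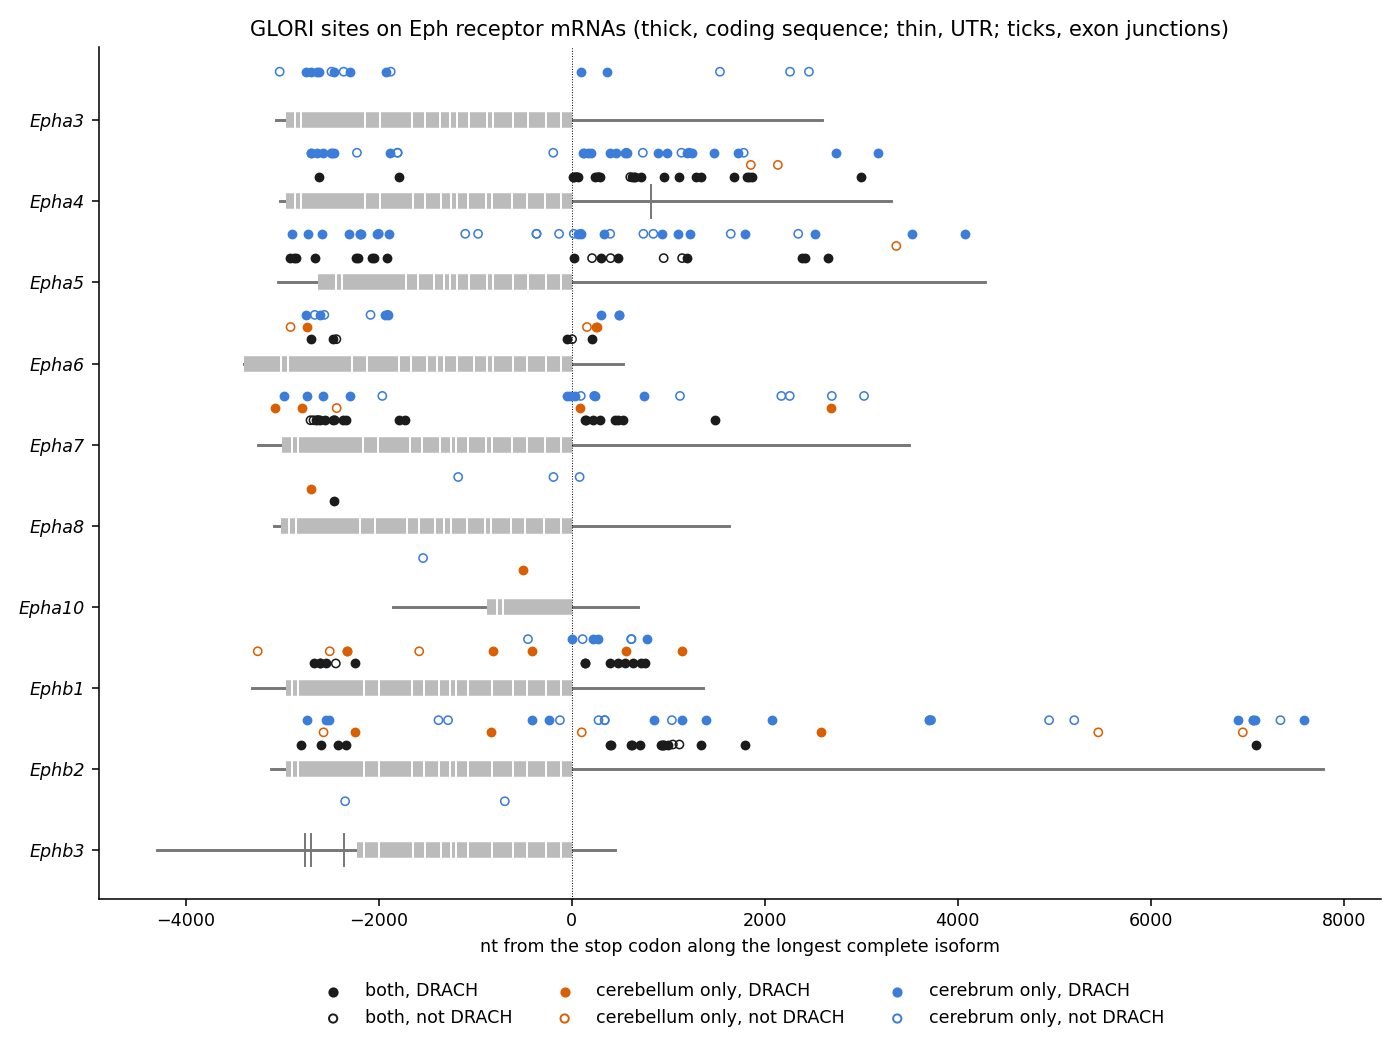
Sites of each Eph receptor gene on its longest complete isoform, by distance from the stop codon (x axis, nt). Points stand for single sites, filled where the 5-mer is DRACH, in black for both libraries, orange for the cerebellum alone and blue for the cerebrum alone. Sites gather over the long exon near the start of the coding sequence and in the 3′ UTR, with few over the rest of the coding sequence.

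By class of exon, the share of DRACH adenosines listed was highest in exon 3, which is 661 to 685 nt long in the 9 receptors other than Epha10. These exons together hold 119 DRACH adenosines, of which the cerebellum list held 30, 25.2% (18.3% to 33.7%), and the cerebrum list 51, 42.9% (34.3% to 51.8%). Coding internal exons of 600 to 750 nt in other genes with a site gave 14.0% (cerebellum, 664 of 4747 adenosines in 326 genes) and 19.5% (cerebrum, 1180 of 6050 in 410 genes). Exon 5, of 336 to 351 nt, gave 4 (cerebellum) and 9 (cerebrum) of 69. In the remaining internal exons, of 53 to 248 nt and without exon 17 of Epha4, 3 and 2 of 330 were listed, 0.909% and 0.606%. The kinase domain lies within these short exons. The last exons, counting exon 3 of Epha10, gave 13.4% (10.3% to 17.3%) and 19.9% (16.2% to 24.3%) of 366. Exon 1 gave 7.58% and 12.1% of 66. In number of sites the last exons held more than exon 3, 60 and 106 against 41 and 65. In Epha6 the last exon also had the higher share, 44.4% and 55.6% of 9 DRACH adenosines, against 21.4% and 28.6% in exon 3.

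**Figure D3:**
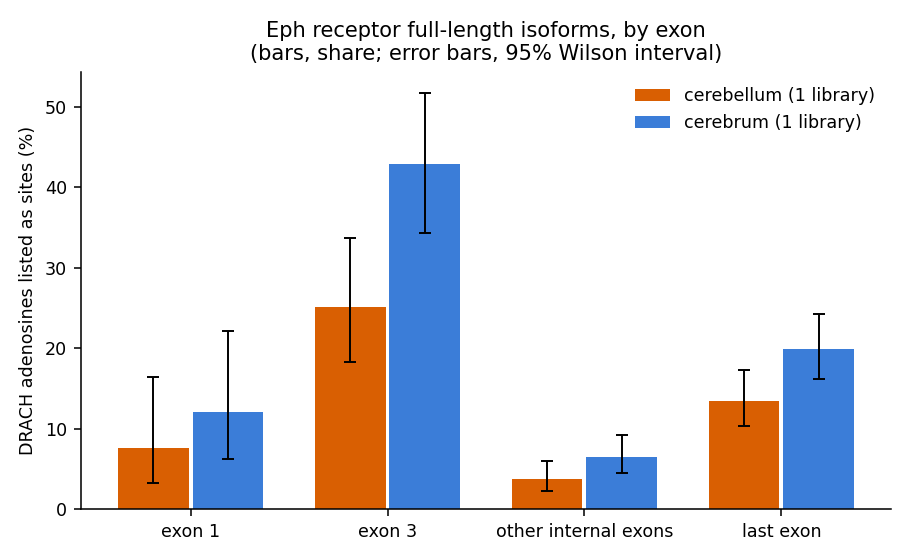
Share of the DRACH adenosines that were listed as sites (y axis, percent) in exon 1, exon 3, the other internal exons and the last exon of the full-length isoforms, for the cerebellum (orange) and cerebrum (blue) libraries, with 95% Wilson intervals over adenosines. Exon 3 is highest in both libraries, at 25.2% and 42.9%. The other internal exons, which here include exon 5 and exon 17 of Epha4, are at 3.73% and 6.53%.

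Within exon 3 the receptors differed. Epha4 had 1 of its 11 DRACH adenosines listed in the cerebellum and 8 in the cerebrum, and Epha5 had 5 and 11 of 17. Epha3 had 0 and 6 of 16. Epha7 had 7 and 9 of 17, Epha6 3 and 4 of 14, Ephb2 5 and 7 of 13, and Ephb1 7 and 5 of 13. Epha8 had 2 and 1 of 10, and Ephb3 0 of 8 in both libraries. The intervals were wide. They ran from 1.62% to 37.7% and 43.4% to 90.3% in Epha4, and from 0% to 19.4% and 18.5% to 61.4% in Epha3. In Epha5 they ran from 13.3% to 53.1% and 41.3% to 82.7%. The cerebrum library held 2.37 times as many sites in all, and with 1 library per tissue these differences were not tested.

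Epha4 has a second long internal exon, exon 17 of 938 nt, which holds its stop codon and the start of its 3′ UTR. There 9 of 28 DRACH adenosines were listed in the cerebellum and 17 in the cerebrum, 32.1% (17.9% to 50.7%) and 60.7% (42.4% to 76.4%). All 9 cerebellum sites were among the 17. Internal exons of 400 nt or more held 53 of the 142 coding isoform sites of the family for the cerebellum, 37.3% (29.8% to 45.5%), and 86 of the 264 for the cerebrum, 32.6% (27.2% to 38.4%), against 17.0% and 14.6% of the sites of all genes. The last exon of the isoform held 51.4% (43.3% to 59.5%) and 51.1% (45.1% to 57.1%), against 72.5% and 69.5% over all genes.

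The contrast by distance to the nearest exon junction rests on largely the same sites and is not a separate observation. In the coding sequence, 9 of 410 DRACH adenosines within 100 nt of a junction were listed in the cerebellum and 17 in the cerebrum, 2.20% and 4.15%. At 101 to 200 nt the shares were 16.7% (10.2% to 26.1%) and 28.6% (20.0% to 39.0%) of 84. At 201 to 400 nt they were 27.3% (17.3% to 40.2%) and 43.6% (31.4% to 56.7%) of 55. Over all genes with a site the shares rose over the same bins from 1.17% to 12.7% and 17.4% (cerebellum) and from 1.94% to 17.7% and 25.2% (cerebrum).

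Near the stop codon the receptors had fewer of their sites than genes in general. Within 200 nt of it lay 14 of 142 coding isoform sites from the cerebellum list, 9.86% (5.96% to 15.9%), and 33 of 264 from the cerebrum list, 12.5% (9.04% to 17.0%), against 20.3% and 18.9% over all genes. Set against the 90 DRACH adenosines of the same window, the cerebellum list held 10, 11.1% (6.15% to 19.3%), and the cerebrum list 20, 22.2% (14.9% to 31.8%), and over all genes 14.8% and 19.8%, each inside the interval of its library. The bins within the window differed. In the last 100 nt up to the end of the stop codon 1 and 3 of 23 were listed, 4.35% and 13.0%, against 11.3% and 16.3% over all genes. In the first 100 nt of the 3′ UTR, 5 and 9 of 23 DRACH adenosines were listed, 21.7% (9.66% to 41.9%) and 39.1% (22.2% to 59.2%), against 20.0% and 26.2% over all genes. Upstream of the stop codon, at 1000 to 401 nt, 4 and 1 of 123 were listed, and over all genes 4.48% and 6.55%. At 401 to 1000 nt downstream the receptors gave 23.0% (15.8% to 32.2%) and 34.0% (25.5% to 43.7%), above the 8.97% and 12.2% of all genes.

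**Figure D4:**
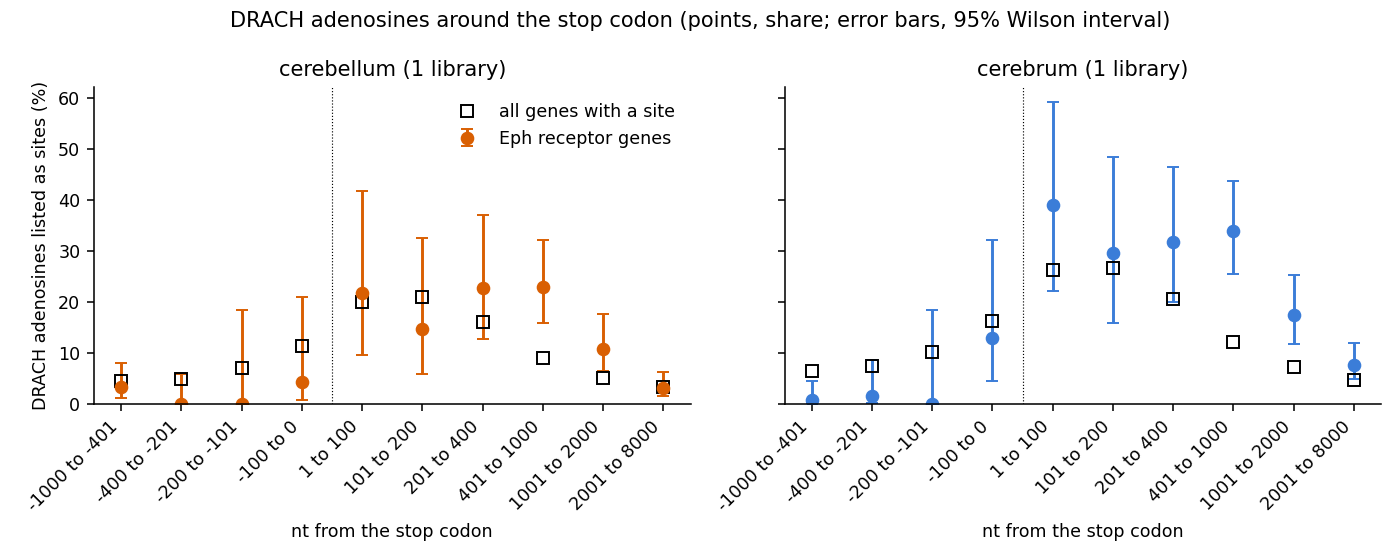
Share of DRACH adenosines listed as sites (y axis, percent) by distance from the stop codon (x axis, nt, negative upstream) in the cerebellum (left) and cerebrum (right) libraries. Filled points are the Eph receptor genes with 95% Wilson intervals and open squares all genes with a site. At 401 to 1000 nt downstream the receptors are at 23.0% and 34.0%, against 8.97% and 12.2% for all genes.

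For each member, the DRACH site found in both libraries that lies nearest to the stop codon is given with its sequence, since this region is where m6A is best known. Epha3, Epha10 and Ephb3 have no such site.
Epha4, chromosome 1, position 77373717, minus strand, 16 nt after the stop codon: taccgaatAGACTcaaaactc
Epha5, chromosome 5, position 84059013, minus strand, 29 nt after: ctccaagtGAACAactcagca
Epha6, chromosome 16, position 59654070, minus strand, in the coding sequence: cagcatacAAACTttacgttt
Epha7, chromosome 4, position 28964145, plus strand, 142 nt after: gcacctccAGACTtgaactcc
Ephb1, chromosome 9, position 101923350, minus strand, 136 nt after: tgaagaatGAACTggacttgt
Ephb2, chromosome 4, position 136654922, minus strand, 400 nt after: gagccaagAAACActtccagg
The Epha8 site nearest to the stop codon is the exon 3 site printed above, at -2458 nt, and the Epha6 site lies at -50 nt, both counted from the last base of the stop codon. In Ephb2, 15 sites of the 3′ UTR were found in both libraries, at 400 to 7095 nt with a median of 942 nt. In Epha4 there were 21, at 16 to 3001 nt with a median of 653 nt. Sites also lay close together. The nearest neighbours among exonic DRACH sites in both libraries were 4 nt apart in Ephb1, 5 nt in Epha4, 6 nt in Epha7, 8 nt in Ephb2, 18 nt in Epha5 and 226 nt in Epha6.

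Over the whole longest isoform, 105 of the 1171 DRACH adenosines of the 10 genes were on the cerebellum list, 8.97% (7.46% to 10.7%), and 174 on that of the cerebrum, 14.9% (12.9% to 17.0%). All genes with a site gave 6.54% and 9.12%. In the cerebellum Ephb1 had 20.2%, Epha4 15.3%, Epha7 13.2% and Epha5 11.2%, and the intervals of neighbours in this order overlapped. In the cerebrum Epha4 had 33.6% (26.1% to 42.0%) and Epha5 24.5% (18.2% to 32.1%), followed by Ephb1 with 18.1% (11.6% to 27.1%). Epha7 had 16.6%, Epha6 14.7% and Ephb2 14.0%. The intervals of neighbours in this order overlapped here too, so the order is not set. The places of Epha5 and Ephb2 also depend on the isoform. Epha5-205 has 96 DRACH adenosines against 143 in Epha5-201. On it the shares of Epha5 were 14.6% (8.89% to 23.0%) and 31.2% (22.9% to 41.1%). On Ephb2-201, the isoform used for exon numbers, which has 97 DRACH adenosines against 228 in Ephb2-202, the shares were 17.5% (11.2% to 26.3%) and 23.7% (16.4% to 33.1%), compared with 8.77% and 14.0%. Epha3 had 0 of 121 in the cerebellum, which allows up to 3.08% by the Wilson bound, and 9 of 121 in the cerebrum, 7.44% (3.96% to 13.5%). Epha8, Epha10 and Ephb3 had 0 to 2 listed in each library.

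Aligned through their proteins, the 10 members had 116 coding sites on 74 codons. Sites in at least 2 members fell on 21 of these codons, always at the same base of the codon, and 17 of the 21 lay in exon 3. These 21 codons held 62 of the 116 sites, 53 of them in DRACH. At the same bases, members without a site appeared 145 times. In 48 of these cases the member had no A, in 68 it had an A outside DRACH and in 29 it had DRACH, 14 of the 29 in Epha8, Epha10 and Ephb3. The codon 181 site of Epha7 was called with GGATT, outside DRACH, and also in Epha5 and Epha6. The 7 other members have no A at the centre of this 5-mer.

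**Figure D5:**
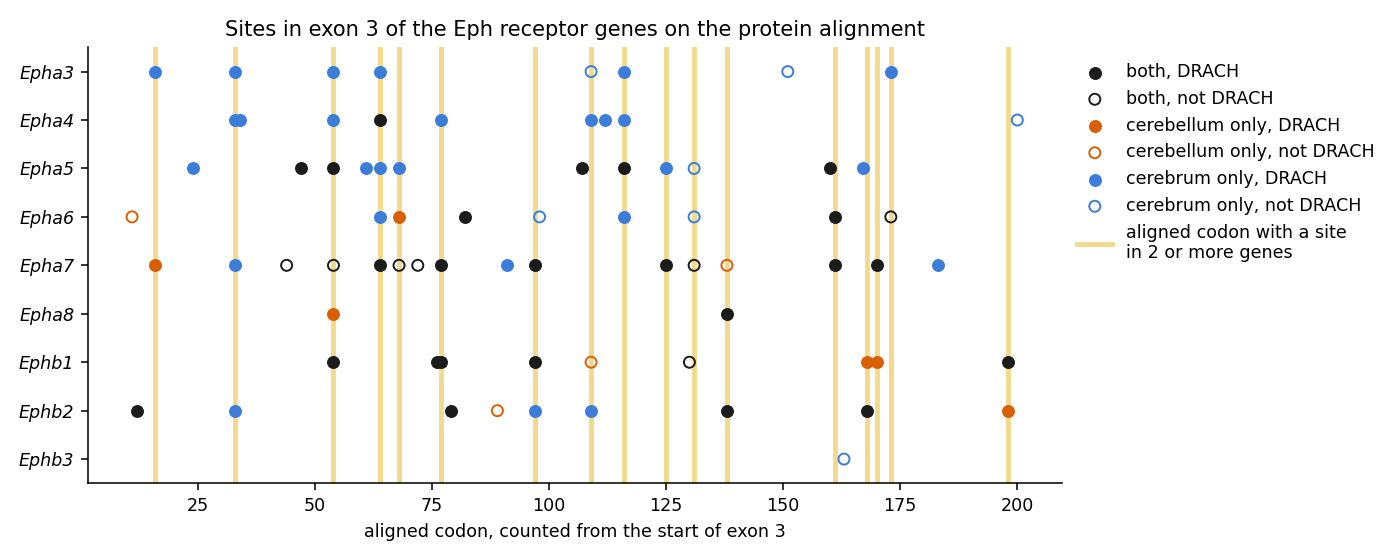
Sites in exon 3 of 9 Eph receptor genes (rows) by aligned codon (x axis, counted from the start of exon 3). Points are filled where the 5-mer is DRACH, in black for both libraries, orange for the cerebellum alone and blue for the cerebrum alone, and yellow lines mark aligned codons with a site in 2 or more of the 10 genes. On the lines lie 7 of the 8 sites of Epha3, 12 of 16 of Epha7, 7 of 9 of Ephb1 and 6 of 12 of Epha5, and Ephb3 has 1 site, which does not.

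Of the exon 3 DRACH adenosines, 74 aligned with a DRACH adenosine that was called in another member, and 42 of these 74 were called in either library, 56.8% (45.4% to 67.4%). Another 29 aligned with DRACH that was called in no other member, and 7 of these were called, 24.1% (12.2% to 42.1%). A pair of called bases enters the first group from both sides, and paralogs share descent, so the shares are a description. Without a shared DRACH in any other member, 8 of 16 were called. The 101 nt around sites on the same aligned base were 43.6% to 85.1% identical between the members of 74 pairs, with a median of 68.3%. With each A read as G, as after GLORI treatment, the identity was 53.5% to 89.1% with a median of 76.2%. The part of read placement between paralogs in the shared positions was not tested.

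The ligands and partners of the receptors were examined by a list written from general knowledge of ephrin signalling. Of the 8 ephrins, 6 had sites in each library and 5 an exonic DRACH site in both, beside 41.2%, 57.4% and 31.0% of all coding genes for the cerebellum, the cerebrum and both. Efnb2, the transmembrane ligand of several EphB receptors, had 7 exonic DRACH sites on the cerebellum list and 23 on the cerebrum list, and Efnb1 had 3 and 8, Efnb3 3 and 10, Efna2 5 and 7, and Efna5 7 and 8. Efna3 had 0 and 1, and Efna1 and Efna4 were without a site. Among the 4 other Eph receptors, Epha1, Epha2 and Ephb4 had none, and Ephb6, a receptor without kinase activity, had 4 and 11. Of the 20 signalling partners, 19 had a site in the cerebellum and 20 in the cerebrum, and 17 had an exonic DRACH site in both, to be read beside the same shares of all coding genes. The cytoplasmic kinases Abl1 and Abl2 had 20 and 36, and 11 and 21, exonic DRACH sites. Fyn, a Src family kinase, had 11 and 9, and Rasa1, a Ras GTPase-activating protein, 16 and 18. Among guanine nucleotide exchange factors, Kalrn had 11 and 22 and Tiam1 4 and 13, while Vav2 had 0 and 2, Vav3 1 and 2, and Ngef, which binds Epha4, 0 and 2. Itsn1 had 8 and 17 and Sipa1l1 3 and 22. Chn1, a Rac GTPase-activating protein downstream of Epha4, had 1 and 5, and Chn2 1 and 6. The adaptors Nck1 and Nck2 had 5 and 11, and 2 and 7. The PDZ proteins Grip1, Grip2 and Pick1 had 2 and 4, 5 and 13, and 2 and 3, and Git1 had 4 and 4. Adam10, a protease that cleaves ephrins, had 8 and 9. More exonic DRACH sites in the cerebrum than in the cerebellum were listed for 18 of the 20 partners and for the 6 ephrins with any, against 81.6% of the 10025 coding genes with such a site.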

How the data were processed

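The authors mapped GLORI reads to mm10 and to a copy of it with PWK bases, took the union of the GLORI-tools calls, and required a read count over 8 and a methylation rate over 0.1. For its allelic results the paper kept only GLORI sites that overlapped peaks of an m6A antibody pull-down (m6A-seq) in the same tissue. The sites counted here were not limited in this way. The deposited files hold chromosome, position and strand with no score, so the depth is unknown. Sequences came from GRCm38, the assembly of mm10, and gene models from GENCODE M21, not the release the study names. An exonic site was placed on the longest isoform over it that has 5′ and 3′ UTRs around a complete coding sequence. Epha6 has no such isoform, and its isoform without a 5′ UTR was used. Epha10 has 1 complete isoform, of 3 exons, and most of the gene lies on an incomplete isoform. Exon numbers and the protein alignment (mafft 7.526) used the complete isoform with the longest coding sequence. On 2999 simulated sites the motif was recovered for 100%, and the region for 100% of those placed on their own isoform. Members and lists were chosen with earlier results of these data known. Sites named by rule were the DRACH site in both libraries nearest the stop codon of each member, sites in both libraries on the same aligned codon, exonic sites without a reference A, the closest pair of neighbours and the 5 most frequent 5-mers. Alternatives changed the isoform, window, motif, overlap or exon length, or left out 1 gene. Python 3.11.15, numpy 2.4.6, samtools 1.23.1 and matplotlib 3.10.9 were used.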

Additional observations from a re-analysis of the deposited data

How the results depend on the processing

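Across 18 values and 50 alternatives that kept all genes, 15 moved outside the interval of the value or by over 1.5 times. With exonic sites alone, the cerebrum count fell from 607 to 280, the DRACH share was 77.9% (cerebellum) and 65.0% (cerebrum), and the sites also in the other library made up 75.2% and 38.9%. With DRACH sites alone, the latter were 78.5% and 44.6%, against 81.0% and 45.3% over all DRACH sites of the libraries. With sites found in both libraries alone, the DRACH share was 82.6%. The share near the stop codon was 18.3% and 22.0% within 400 nt, and 5.63% and 7.58% within 100 nt, as a window of another width gives. Over all exons of each gene, 6.61% and 10.6% of DRACH adenosines were listed. Region shares and the long exon shares did not move under these alternatives.

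Leaving out 1 gene at a time moved 8 of 180 values, and the gene was Epha3, Epha4, Epha5 or Ephb1. The cerebrum DRACH share ranged from 31.2% without Epha4 to 39.7% without Epha3. Sites also in the other library ranged from 52.9% to 65.8% of the cerebellum list, the highest without Ephb1, and from 17.2% to 22.8% of the cerebrum list, the highest without Epha3. The 5′ UTR share ranged from 1.72% to 6.90% (cerebellum) and from 1.47% to 4.81% (cerebrum), both lowest without Epha5. Without Epha4 the cerebrum share of DRACH adenosines listed was 12.5%, of a range up to 16.1%, and the share in long internal exons 26.4%, of a range up to 36.3%.

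No paired analysis was possible because there was 1 library per tissue. Without read counts, no depth can be set beside any value here, and its part in the larger cerebrum list was not tested.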

Other observations

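Intronic sites differed from exonic ones in number and motif. The cerebellum list held 54 intronic sites of the 10 genes and the cerebrum list 327, and 6 were found in both libraries. The 6 were 11.1% (5.19% to 22.2%) of the cerebellum and 1.83% (0.844% to 3.94%) of the cerebrum intronic sites. Over all genes 1504 intronic sites were found in both libraries, of 13215 for the cerebellum and 45262 for the cerebrum. Of the 54, 14.8% lay in DRACH (7.70% to 26.6%), and of the 327, 9.48% (6.76% to 13.1%), while the intronic sites of all genes gave 14.9% and 12.8%. Epha5 had 12 and 124, Epha3 2 and 87, Ephb1 26 and 40, Epha7 6 and 30, Epha6 4 and 28, Ephb2 2 and 4, and Epha4 0 and 13. Per 100 kb of intron the cerebrum density was 34.6 in Epha5 and 27.6 in Epha3 but 2.95 in Epha6, the longest gene of the family. In Epha3, 51 of the 87 lay in intron 3. Whether these sites lie in unspliced RNA was not tested.

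Of the 6 intronic sites in both libraries, the 3 with DRACH lie in intron 3 of Ephb1, inside Gm29388, another gene on the same strand, so that they can belong to either gene. They are at positions 102151276, 102151785 and 102152119 of chromosome 9.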
